A study of Rattus norvegicus with 6 samples.

Results

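Prostanoids are made from arachidonic acid, and the genes described here encode the enzymes that make them and the receptors that read them in cerebral arteries. The 10 genes were taken by name: the cyclooxygenases Ptgs1 and Ptgs2, the terminal synthases Ptges, Ptgds, Ptgis and Tbxas1, and the receptors Ptger2, Ptger4, Ptgir and Ptgfr. Each was read from a probe set annotated to that gene alone, and where several did so the one with the highest mean over all 6 arrays was kept. All 10 of 10 were measured, among 18166 named genes and 36495 probe sets. Of these genes 9 had 1 such probe set. Ptger2 had 2, which carried the same deposited values on every array, so they count as 1 measurement.

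Cerebral arteries of male rats were taken 6 hours after subarachnoid haemorrhage (SAH), bleeding beneath the membrane that wraps the brain, or from sham-operated rats. The labels number the SAH arrays 1, 4 and 5 and the sham arrays 6, 7 and 8, with 3 arrays in each group, and the labelled RNA of an array was prepared from 6 µg of total RNA. The sources used here do not give the strain, the age, the way the bleed was made or the time after sham surgery. No label ties each array to a rat of its own, and the p-values then reflect only how these samples vary, which may be technical. The design compares arteries after the bleed with arteries after surgery without it. Smooth muscle markers were bright, with mean log2 values over the 6 arrays of 13.51 for Tagln, 13.37 for Des and 12.76 for Myh11, while Acta2 and Cnn1 had no probe set naming them alone. The endothelial markers Esam and Vwf stood at 11.67 and 11.60 and the connective tissue gene Dcn at 13.05, so the samples also carried RNA of the inner lining and of connective tissue. Of 13 measured brain cell markers Cnp stood at 10.31 and Gfap at 9.55, and the list's mean by array was 7.76 to 8.26. Some RNA of brain cells may therefore be present too. Array medians lay between 7.31 and 7.37.

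Cyclooxygenase converts arachidonic acid, released from membranes by phospholipases, to the short-lived intermediate PGH2. COX-1 is made in most cells at a steady level, whereas COX-2 is an early response gene that cytokines, growth factors and mechanical injury induce. Separate synthases then turn PGH2 into prostaglandin E2, prostaglandin D2, prostacyclin or thromboxane, each with G protein-coupled receptors of its own. In arteries prostacyclin and the E2 receptors EP2 and EP4 act through cyclic AMP and relax smooth muscle, while thromboxane and prostaglandin F2 alpha constrict it.

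The stretches of DNA before the start of Ptgs2 and of Ptges are shown because these 2 inducible genes shared their highest array. That array, sham array 8, was also the highest for Ptgs1 and Ptger4. The stretches are printed for description alone. They are the 250 bases before the RefSeq start in the GRCr8 assembly, 5′ to 3′ on the strand of the gene. Ptgs2 lies on the plus strand (chr13:64713813-64714062) and Ptges on the minus strand (chr3:34586988-34587237). Capitals mark the letters matched by any of 8 motifs searched on both strands.
Ptgs2: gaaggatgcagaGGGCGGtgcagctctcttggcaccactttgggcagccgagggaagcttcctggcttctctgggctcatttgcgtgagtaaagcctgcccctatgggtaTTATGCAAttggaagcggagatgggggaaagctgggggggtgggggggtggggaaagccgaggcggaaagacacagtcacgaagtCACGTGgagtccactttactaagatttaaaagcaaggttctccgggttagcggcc
Ptges: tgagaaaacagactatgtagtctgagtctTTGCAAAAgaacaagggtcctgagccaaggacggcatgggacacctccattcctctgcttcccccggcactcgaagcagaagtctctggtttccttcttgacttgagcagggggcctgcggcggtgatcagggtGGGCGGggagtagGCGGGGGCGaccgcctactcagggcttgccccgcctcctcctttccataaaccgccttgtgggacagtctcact

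Both windows held a GC box (GGGCGG), which 30.5% of 33469 rat promoter windows of this length held, and a C/EBP motif (TTGCNNAA), held by 9.22%. Ptgs2 alone held the E-box CACGTG (5.59% of windows), at 55 to 50 bases before the start. Ptges alone held the Egr1 motif GCGNGGGCG (4.29%), at 74 to 66 bases before the start. RefSeq gave such a window for 9 of the 10 genes, all but Ptgis. Among the other 7, Ptgds and Ptgir held a GC box, Ptgfr the C/EBP motif, and Tbxas1 the TATA box letters TATAAA (12.9% of windows, either strand). The Tbxas1 match lay on the strand opposite to the gene. No match was found in the 9 windows for the cyclic AMP response element core TGACG (18.2%), the NF-kappaB motif GGGANTTTC (0.953%) or the interferon-stimulated response element GAAANNGAA (8.12%). The motifs do not overlap one another in the 2 sequences shown, and a match is a run of letters, not a measured binding site.

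None of the 10 prostanoid genes passed the test between SAH and sham arteries. The test was limma on log2 values with p-values adjusted by Benjamini-Hochberg over every probe set, and a gene was called at an adjusted p under 0.05. Over all named genes 1.29% were called. At an unadjusted p under 0.05, 2 of the 10 prostanoid genes were higher after SAH and none was lower. Of all named genes 18.6% had such a p, 8.16% higher and 10.5% lower. These were Ptger2 and Tbxas1, which were also the 2 genes whose SAH and sham values did not overlap, both higher after SAH. Of all named genes 26.8% did not overlap, 11.4% being higher and 15.4% lower after SAH, so a count of 2 in 10 lies near the background. The median log2 difference, SAH minus sham, was 0.07 over the prostanoid genes and -0.01 over all named genes. All 10 passed the filter on dim probe sets, which asks that 3 or more arrays read above their median and which 62.33% of named genes passed.

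Ptgs1, which encodes COX-1, read 9.62, 9.67 and 9.58 on SAH arrays 1, 4 and 5 and 9.73, 9.45 and 9.80 on sham arrays 6, 7 and 8. The SAH values lay inside the sham range, and the log2 difference was -0.04, with a 95% interval from limma of -0.32 to 0.24 (adjusted p = 0.925, n = 3 each). The interval runs from 0.800 to 1.18 as a ratio of SAH to sham, which bounds the change of this gene more tightly than that of COX-2.

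Ptgs2, which encodes COX-2, read 11.89, 12.00 and 12.51 on SAH arrays 1, 4 and 5 and 11.90, 12.00 and 12.87 on sham arrays 6, 7 and 8. The groups overlapped throughout, with 2 arrays of each group near 12 and 1 array of each above them, and the highest value was that of sham array 8. The means were 12.14 ± 0.33 (SD, n = 3) after SAH and 12.26 ± 0.54 (n = 3) in sham arteries. Their log2 difference was -0.12 (95% interval -0.81 to 0.56, limma adjusted p = 0.896), so neither a fall to 0.571 of the sham level nor a rise to 1.48 times it lies outside the interval. The SD of Ptgs2 over the sham arrays was larger than that of 98.3% of named genes. Without sham array 8 the difference was 0.18 (adjusted p = 0.769), and over the alternatives tried the adjusted p ran from 0.769 to 0.9996.

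**Figure D1:**
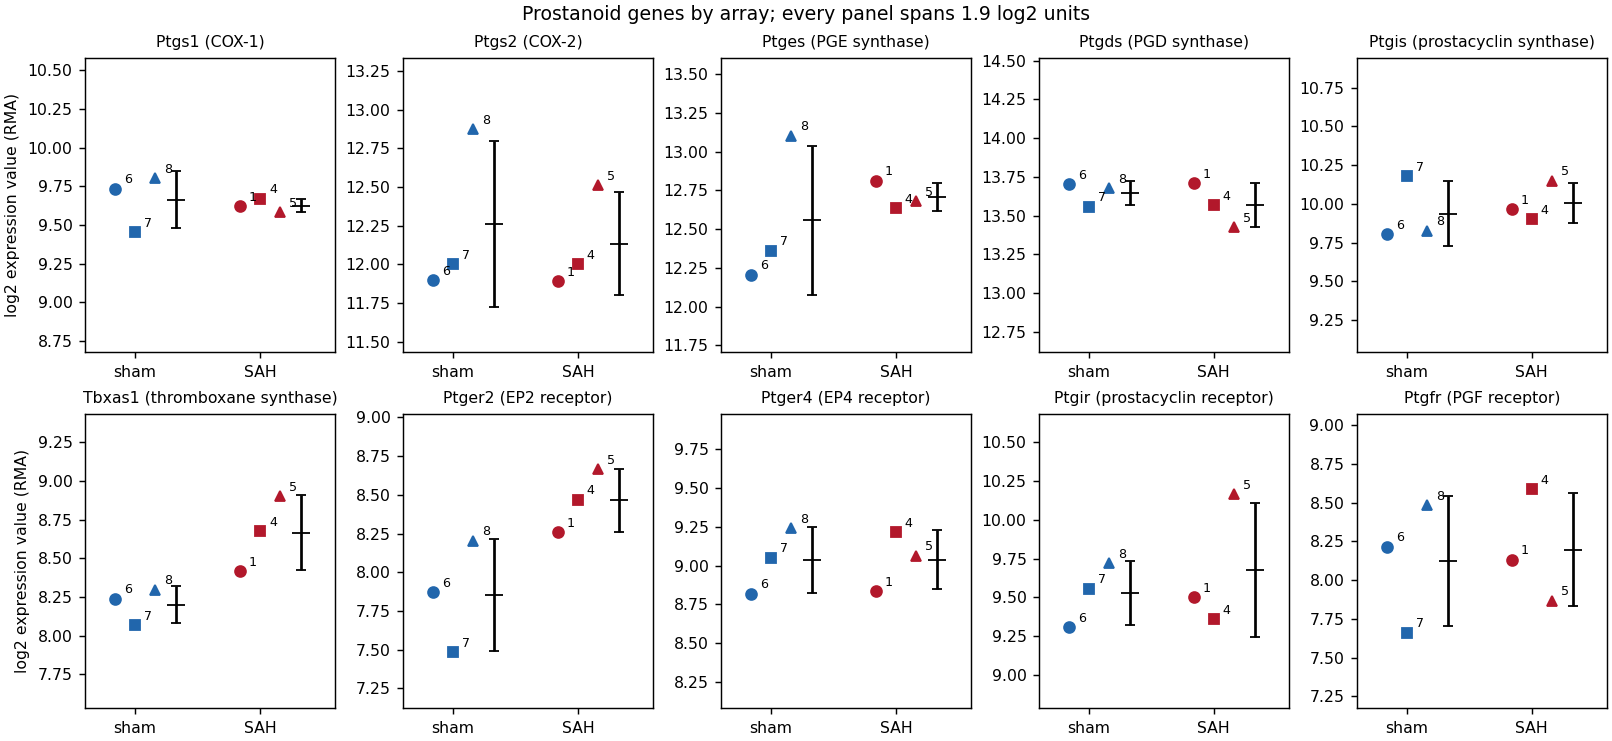
Log2 expression values (RMA, vertical axis) of the 10 prostanoid genes in sham (blue) and SAH (red) arrays, with the array number beside each point and the mean and SD over 3 arrays in black. Every panel spans the same number of log2 units, and sham and SAH points are separate for Tbxas1 and Ptger2 alone.

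Ptges, which encodes the inducible microsomal prostaglandin E synthase, often coupled to COX-2, read 12.81, 12.64 and 12.68 on the SAH arrays and 12.21, 12.36 and 13.10 on the sham arrays. The SAH values were close together and lay above sham arrays 6 and 7 but below sham array 8. The SD was 0.092 over the SAH arrays, larger than that of 26.26% of named genes, and 0.48 over the sham arrays, larger than that of 97.68%. The log2 difference was 0.15 (95% interval -0.39 to 0.70, limma adjusted p = 0.824, n = 3 each), and without sham array 8 it was 0.43 (adjusted p = 0.257). Across its alternatives the adjusted p stayed between this value and 0.987.

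Ptgds, which encodes the lipocalin-type prostaglandin D synthase, a protein that the membranes around the brain make in quantity, read 13.71, 13.57 and 13.42 on the SAH arrays and 13.70, 13.56 and 13.68 on the sham arrays. Its lowest value was that of SAH array 5, and the groups overlapped. The log2 difference was -0.08 (95% interval -0.34 to 0.18, limma adjusted p = 0.809, n = 3 each), the narrowest interval of the 10 genes. The highest log2 value of any probe set on these arrays was 14.07. Differences of so bright a gene may be understated, which was not tested. The mean log2 value of 14 leptomeningeal and fibroblast markers was also lowest on SAH array 5, at 10.16, against 10.59 and 10.79 on the other SAH arrays and 10.72 to 10.94 on the sham arrays. None of these 14 markers was called, and their part in the Ptgds values was not tested. In such bulk samples fewer cells of a type and less RNA per cell cannot be told apart.

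Ptgis, which encodes prostacyclin synthase, read 9.96, 9.90 and 10.15 on the SAH arrays and 9.80, 10.18 and 9.83 on the sham arrays. All 3 SAH values lay within the sham range, and the log2 difference was 0.07 (95% interval -0.26 to 0.39, limma adjusted p = 0.872, n = 3 each). As a ratio the interval runs from 0.837 to 1.31.

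Tbxas1, which encodes thromboxane synthase, an enzyme known from platelets and macrophages, read 8.42, 8.68 and 8.90 on SAH arrays 1, 4 and 5 and 8.24, 8.07 and 8.30 on sham arrays 6, 7 and 8. Every SAH value lay above every sham value, with the smallest gap between SAH array 1 and sham array 8. The mean was 1.38-fold higher after SAH, a log2 difference of 0.46 (95% interval 0.12 to 0.81), but the test did not call it (limma adjusted p = 0.220, n = 3 each). Leaving out 1 array moved the adjusted p between 0.0891, without SAH array 1, and 0.496, without sham array 7.

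The receptor Ptger2, which encodes EP2, had the largest difference of the 10 genes. It read 8.26, 8.47 and 8.66 on SAH arrays 1, 4 and 5 and 7.87, 7.48 and 8.20 on sham arrays 6, 7 and 8. Every SAH value lay above every sham value, but SAH array 1 and sham array 8 nearly met. The mean was 1.53-fold higher after SAH, a log2 difference of 0.61 (95% interval 0.14 to 1.08), which was not called (limma adjusted p = 0.236, n = 3 each). Over the alternatives tried its adjusted p ran from 0.122 to 0.495.

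Ptger4, which encodes EP4, the other E2 receptor coupled to cyclic AMP, read 8.84, 9.22 and 9.07 on the SAH arrays and 8.82, 9.05 and 9.24 on the sham arrays. The values were interleaved and both means were 9.04, with a log2 difference of 0.0014 (95% interval -0.36 to 0.36, limma adjusted p = 0.998, n = 3 each). The interval of Ptger2 overlaps that of Ptger4, and the difference between the 2 receptors was not tested.

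Ptgir, which encodes the prostacyclin receptor, read 9.50, 9.36 and 10.17 on the SAH arrays and 9.31, 9.55 and 9.72 on the sham arrays. SAH array 5 alone lay above the sham range, and the other 2 SAH arrays lay inside it. The log2 difference was 0.15 (95% interval -0.39 to 0.68, limma adjusted p = 0.826, n = 3 each), and it was -0.10 without SAH array 5 (adjusted p = 0.887, with 0.630 to 0.978 over the alternatives).

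Ptgfr, which encodes the receptor for prostaglandin F2 alpha, read 8.13, 8.59 and 7.87 on the SAH arrays and 8.22, 7.66 and 8.48 on the sham arrays. Its highest value was that of SAH array 4 and its lowest that of sham array 7, and the groups overlapped. The log2 difference was 0.08 (95% interval -0.54 to 0.69, limma adjusted p = 0.934, n = 3 each). Over the 10 genes, the intervals of 9 lay within a 2-fold change in either direction, Ptger2 being the exception, and those of 4 lay within a 1.5-fold change. The 4 were Ptgs1, Ptgds, Ptgis and Ptger4.

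**Figure D2:**
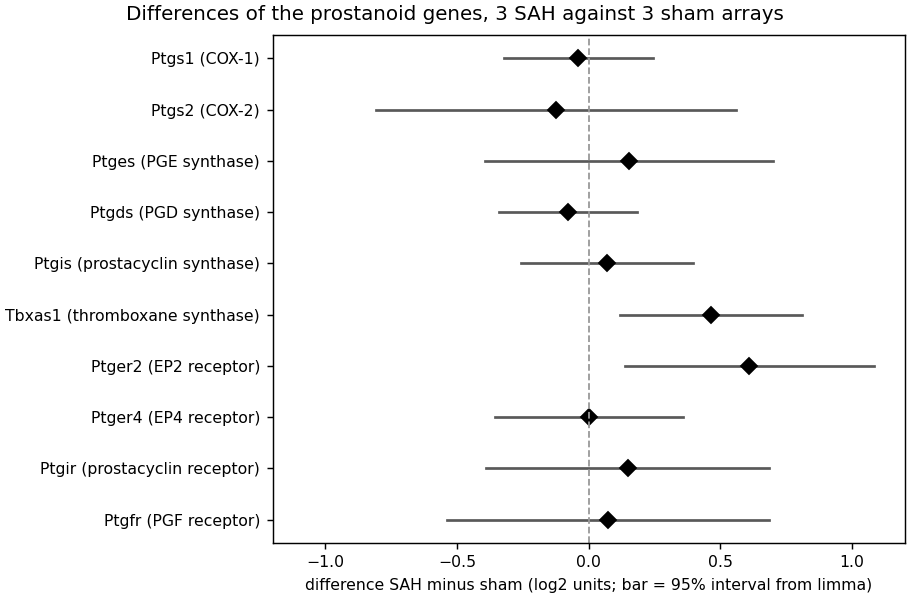
Log2 difference, SAH minus sham (horizontal axis, log2 units), of each prostanoid gene, with the 95% interval from limma over 3 SAH and 3 sham arrays as a bar. The intervals of Tbxas1 and Ptger2 lie above 0 before adjustment for the number of probe sets, and the other 8 include 0.

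Arrays of 1 group were often far apart. Of the 10 genes 4 (Ptgs1, Ptgs2, Ptges and Ptger4) had their highest value on sham array 8, which held the highest value of 12.8% of all named genes, and 3 (Tbxas1, Ptger2 and Ptgir) on SAH array 5, which held that of 21.8%. Sham arrays 6 and 7 held the lowest value of 4 genes each, and the lowest of 15.7% and 11.4% of all named genes. Sham array 8 stood 0.92 log2 units above the mean of the other 2 sham arrays for Ptgs2, 0.82 for Ptges, 0.55 for Ptgfr and 0.52 for Ptger2, but 0.05 for Ptgds and -0.17 for Ptgis.

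The mean of the neutrophil markers was also high on sham array 8 and SAH array 5. The mean log2 value of 14 measured neutrophil markers was 8.40, 8.40 and 9.12 on SAH arrays 1, 4 and 5 and 7.26, 7.42 and 8.74 on sham arrays 6, 7 and 8, with none of the 14 called. Only 7 of the 14 passed the filter on dim probe sets. Their differences were above 0 for 10 and below 0 for 4, and those 4 read below the median of every array. Monocyte and macrophage markers (14 measured, none called) had their highest mean on sham array 8, at 9.86, against 9.29 and 9.50 on the other sham arrays and 9.18 to 9.46 on the SAH arrays. Of its 14 differences 5 were above 0 and 9 below. Ccr2, a chemokine receptor of recruited monocytes, differed by 1.86 ± 0.59 (SE), and Cd163 and Mrc1, of resident macrophages, by -1.29 ± 0.44 and -1.24 ± 0.39. Ccr2 was higher after SAH without overlap, and Csf1r, C1qa, C1qb and C1qc were lower without overlap. Platelet markers (8 measured, none called) had means of 7.18, 7.44 and 7.69 on the SAH arrays and 7.14 to 7.30 on the sham arrays, with Pf4 differing by 0.06 ± 0.18 (SE) and Itga2b by 0.82 ± 0.24 (limma adjusted p = 0.920 and 0.200). Only 3 of the 8 passed the filter on dim probe sets, and Itga2b did not. Mast cell markers (8 measured, none called) had means of 5.94 to 6.07, below the median of every array. The 13 measured brain cell markers, none called, also had high means on sham array 8 (8.19) and SAH array 5 (8.26). Their means were 7.76 and 8.21 on SAH arrays 1 and 4 and 7.87 and 7.88 on sham arrays 6 and 7. The part of these cells in the values of Ptgs2, Ptges, Ptger2 and Tbxas1 was not tested.

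**Figure D3:**
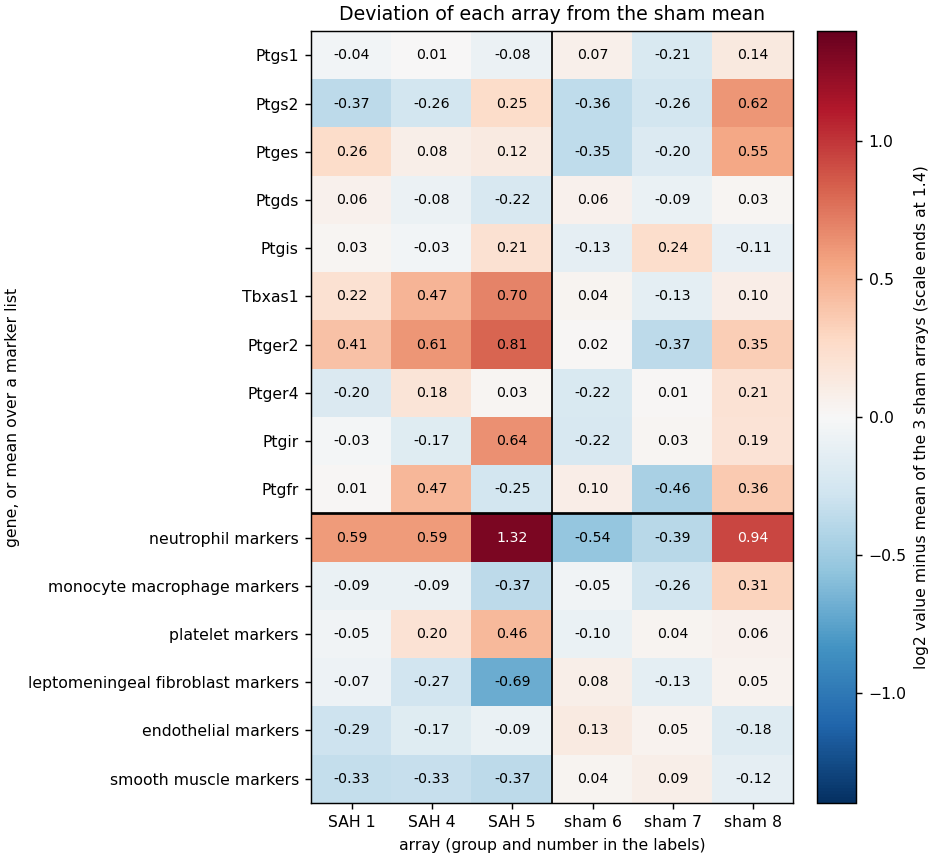
Deviation of each array (columns) from the mean of the 3 sham arrays, in log2 units, for the 10 prostanoid genes (upper rows) and for the mean over each of 6 marker lists (lower rows). Sham array 8 is high for Ptgs2 (0.62), Ptges (0.55) and neutrophil markers (0.94), and SAH array 5 is high for Ptger2 (0.81), Tbxas1 (0.70) and neutrophil markers (1.32).

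For the 3 prostanoid genes with the widest range over the 6 arrays, the genes nearest in pattern were found by the root mean square distance between values centred on each gene's mean. Nearest to Ptger2 were Arhgap30, Cd37, a leukocyte tetraspanin, and Batf, a transcription factor of lymphocytes and myeloid cells, at distances of 0.067, 0.084 and 0.086 log2 units. Cd37 read 7.99, 8.17 and 8.46 on the SAH arrays and 7.52, 7.33 and 8.09 on the sham arrays, so that sham array 8 lay inside the SAH range.

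Nearest to Ptgs2 were Plk3, a stress-response kinase gene (0.066), the cyclin gene Ccnl1 (0.068) and Mapk8ip2, a scaffold of the JNK pathway (0.072). Plk3 read 9.03, 9.06 and 9.54 on the SAH arrays and 8.90, 9.04 and 10.06 on the sham arrays. That it shares its 2 high arrays with Ptgs2 follows from its choice by pattern. Nearest to Ptgfr were Paip2l1 (0.062), the MHC class II gene RT1-Da (0.079) and Clec4a3, a lectin of myeloid cells (0.093). Paip2l1 was dim, at 4.26 to 5.31, below the median of every array. Mapk8ip2 read below the array median on SAH arrays 1 and 4 and sham arrays 6 and 7. With 1 array left out between 2 and 6 of these 9 genes remained among the nearest.

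**Figure D4:**
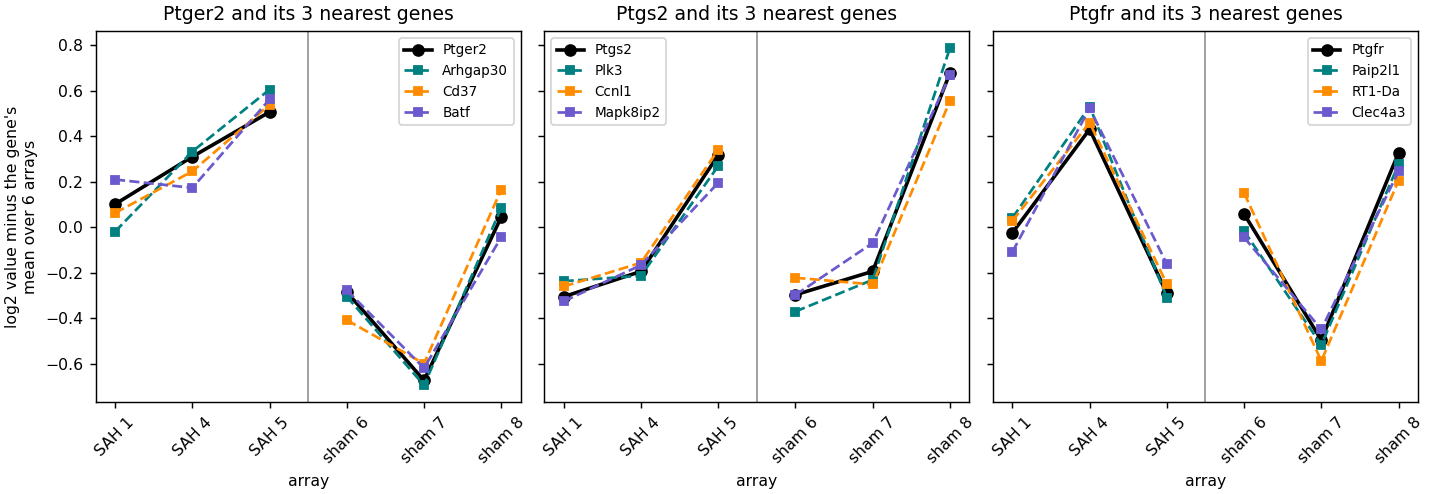
Log2 values minus each gene's mean over the 6 arrays (vertical axis) for Ptger2, Ptgs2 and Ptgfr (black) and the 3 genes nearest in pattern to each (colours), by array. Lines join arrays of 1 group to guide the eye and stand for no order; Ptgs2 and its neighbours peak on sham array 8 and SAH array 5.

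Upstream of cyclooxygenase, none of 18 measured genes for phospholipases and arachidonate release was called, and the list's median log2 difference was -0.03. The largest difference was that of Pla2g2a, a secreted phospholipase A2 known to be induced in inflammation. It read 10.98, 9.84 and 10.43 on the SAH arrays and 8.72, 9.19 and 9.20 on the sham arrays. The groups did not overlap, and the log2 difference was 1.38 ± 0.29 (SE; limma adjusted p = 0.104, n = 3 each). It passed where dim probe sets were left out or 1 probe set a gene was tested (adjusted p = 0.0454 and 0.0453). Pla2g5 and Pla2g6, of the same superfamily, differed by -0.40 ± 0.11 and -0.34 ± 0.11, and Daglb, a diacylglycerol lipase gene, by -0.37 ± 0.11, none of them past the threshold.

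Among 15 other genes for prostanoid enzymes and transport none was called (median -0.12), but 2 came close. Hpgds, the haematopoietic prostaglandin D synthase, read 6.81, 6.67 and 6.57 on the SAH arrays and 6.10, 5.90 and 6.02 on the sham arrays, a log2 difference of 0.67 ± 0.11 (SE; limma adjusted p = 0.0564, n = 3 each). All 6 values lay below the array medians. It was called with trend and robust options (0.0481), with array weights (0.0460) and with 1 probe set a gene (0.0188). Abcc4, an exporter of prostaglandin E2 and cyclic nucleotides, read 9.002, 9.008 and 8.894 on the SAH arrays and 9.69, 9.55 and 9.43 on the sham arrays. Its log2 difference was -0.59 ± 0.11 (SE; limma adjusted p = 0.0733), and it was called when dim probe sets were left out (0.0277), with trend and robust options (0.0468) and with 1 probe set a gene (0.0257). Leaving out 1 array moved the adjusted p of Hpgds between 0.0610 and 0.231 and that of Abcc4 between 0.0717 and 0.284. Cbr1, a carbonyl reductase that acts on prostaglandin E2, differed by 0.35 ± 0.10 and Ptgr2, a prostaglandin reductase, by -0.37 ± 0.13 (adjusted p = 0.196 and 0.277).

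None of 7 other genes of prostanoid receptors and their partners was called (median 0.05). Ptgfrn, whose product binds the F2 alpha receptor and limits its ligand binding, differed by 0.57 ± 0.18 (SE) and Ptger3, the E2 receptor EP3, by -0.49 ± 0.19 (limma adjusted p = 0.216 and 0.311, n = 3 each). Ptger3 read below the median of every array. Ptger1, the EP1 receptor, differed by -0.13 ± 0.14 and Pparg, a nuclear receptor that prostaglandin D2 metabolites can bind, by -0.27 ± 0.19. Ptgfrn was called without SAH array 1 (adjusted p = 0.0451).

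Downstream of the receptors 2 of 40 genes for G protein coupling, cyclic AMP and phospholipase C fell and none rose, where 0.33% and 0.963% of all named genes did. Adcy5, an adenylyl cyclase that makes cyclic AMP in smooth muscle, read 9.62, 9.90 and 9.57 on the SAH arrays and 10.74, 10.55 and 10.59 on the sham arrays. The 2 groups were well apart, and the log2 difference was -0.93 ± 0.12 (SE; limma adjusted p = 0.0326, n = 3 each). Rapgef3, which encodes the cyclic AMP sensor Epac1, read 8.72, 8.80 and 8.64 on the SAH arrays and 9.52, 9.60 and 9.39 on the sham arrays, a log2 difference of -0.78 ± 0.10 (limma adjusted p = 0.0314).

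Both falls were called without SAH array 1 (adjusted p = 0.0401 for Adcy5 and 0.0365 for Rapgef3). Without SAH array 4, SAH array 5, sham array 6, sham array 7 or sham array 8 neither was called, with adjusted p between 0.0636 and 0.181 for Adcy5 and between 0.0726 and 0.186 for Rapgef3. The median log2 difference of this list was -0.17, and 32 of its 40 differences were below 0. In it 15 genes did not overlap and were lower after SAH, and 3 did not overlap and were higher, where 15.4% and 11.4% of all named genes were. The mean over 9 smooth muscle markers was also lower, at 11.49 to 11.53 on the SAH arrays and 11.73 to 11.94 on the sham arrays, with Smtn alone called. Differences were below 0 for 8 of these 9, and 6 were lower after SAH without overlap. Endothelial markers had 7 of 9 differences below 0 and leptomeningeal and fibroblast markers 13 of 14, with none called and medians of -0.29 and -0.23, against -0.26 for smooth muscle markers. The mean of the endothelial markers was 9.99 to 10.19 on the SAH arrays and 10.10 to 10.41 on the sham arrays, so these groups overlapped. Of the endothelial markers 1, Cdh5, was higher after SAH without overlap, by 0.61 ± 0.11 (SE; limma adjusted p = 0.0776). Another 3 were lower without overlap. The part of these cells in the values of the list was not tested.

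Prkaca, the catalytic subunit of protein kinase A, differed by -0.87 ± 0.16 (SE), Pde3a, a phosphodiesterase that breaks down cyclic AMP, by -0.81 ± 0.16, Gna12 by -0.44 ± 0.09 and Gna13 by 1.00 ± 0.19 (limma adjusted p = 0.0811, 0.0864, 0.104 and 0.0799, n = 3 each). Gna12 and Gna13 encode G protein alpha subunits. All 4 were called when dim probe sets were left out or 1 probe set a gene was tested, with adjusted p between 0.0316 and 0.0390. Gna13 was also called with array weights (0.0407) and, like Prkaca, without SAH array 1 (0.0128 and 0.0312). Without any other single array the adjusted p was 0.148 to 0.297 for Gna13, 0.153 to 0.297 for Prkaca and 0.0995 to 0.310 for Pde3a, which was not called without SAH array 1 either (0.0557).

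**Figure D5:**
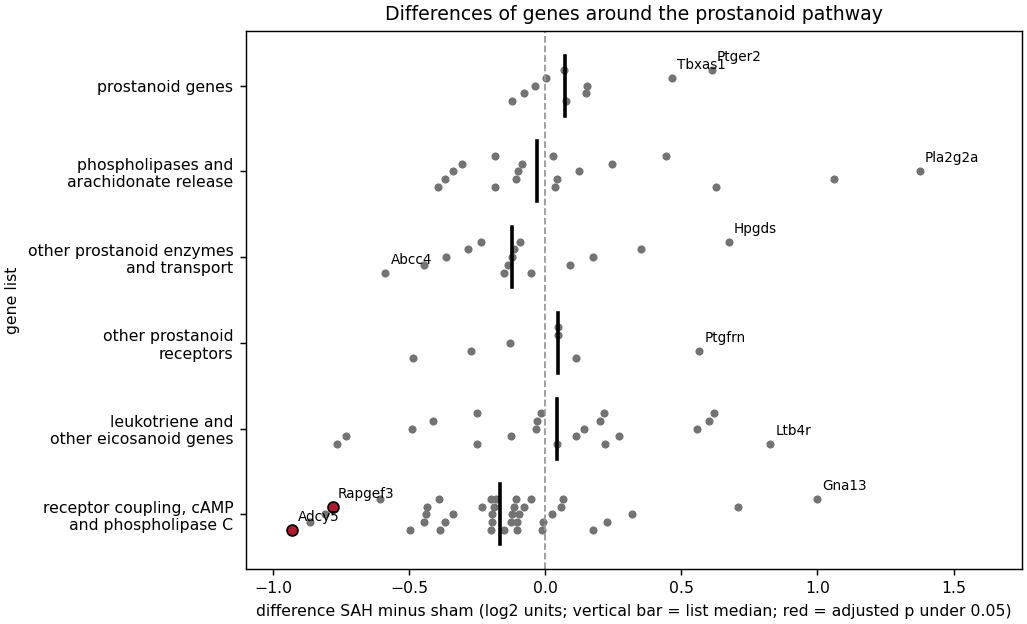
Log2 difference, SAH minus sham (horizontal axis, log2 units), of the 10 prostanoid genes and of the genes in 5 lists around the pathway (rows); each point is a gene, the vertical bar is the list median, and red points were called. Adcy5 and Rapgef3 are the 2 called genes, both lower after SAH.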

How the data were processed

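The deposited table holds log2 expression values of 36685 probe sets on 6 rat Gene ST-type arrays; the authors made them with RMA and Affymetrix Expression Console 1.1.2, per the submitters' processing notes, and the sources used here do not give the settings. The values were used as they stood, after 190 Affymetrix control probe sets were set aside. GEO's platform annotation, with symbols updated by gene ID from the RefSeq table of GRCr8, named 1 gene for 18511 probe sets, several for 575 and none here for 17409. The groups were compared by limma (version 3.58.1, R 4.3.3) with lmFit and eBayes, two-sided and without covariates, adjusted over 36495 probe sets. The number of arrays limits the precision. Genes named were all members, of each of 5 pathway lists the called genes and up to 4 others with the smallest p, the 3 nearest in pattern to each of the 3 members with the widest range, and of 9 marker lists those with the highest mean or the largest difference; the text gives part of these. The members and lists were chosen with earlier results of these data known. The fit was tested on simulated data with noise drawn independently for each probe set and array. Shifts shared by many genes of 1 array were not simulated. Fold values are 2 to the power of a difference of mean log2 values.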

Additional observations from a re-analysis of the deposited data

How the results depend on the processing

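No prostanoid gene was called, in either direction, under any alternative tried: dim probe sets left out, quantile normalization repeated, array medians subtracted, array weights, trend and robust options, 1 probe set a gene, an adjusted p under 0.10, the mean over a gene's probe sets, and each array left out. Ptger4 differed by -0.0087 with array medians subtracted, against 0.0014, and no other gene of the 10 changed sign with all 6 arrays. With 1 array left out the log2 differences ran from -0.11 to 0.10 for Ptger4, -0.023 to 0.43 for Ptges, -0.15 to 0.26 for Ptgfr, -0.10 to 0.31 for Ptgir, -0.0027 to 0.19 for Ptgis, -0.14 to 0.030 for Ptgs1 and -0.31 to 0.18 for Ptgs2. Those of Ptger2 (0.43 to 0.79), Tbxas1 (0.35 to 0.59) and Ptgds (-0.15 to -0.0069) kept their sign. Of 101 pathway genes 0 rose and 2 fell in the main analysis. The numbers were 3 and 6 with 1 probe set a gene, 2 and 5 at an adjusted p under 0.10, 2 and 6 among the 80 left by the dim filter, and 3 and 5 with the mean over a gene's probe sets. They were 2 and 2 with array weights and 1 and 3 with trend and robust options, and leaving out 1 array gave 0 to 2 rises and 0 to 3 falls. The calls of single pathway genes given above leave out the mean over a gene's probe sets. Of all named genes 175 rose and 60 fell. These counts were 359 and 313 with the dim filter, 378 and 314 with 1 probe set a gene, 378 and 317 with the mean over probe sets, 266 and 107 with array weights, and 321 and 209 at an adjusted p under 0.10. With trend and robust options 121 fell, and with 1 array left out 29 to 487 rose and 0 to 183 fell. Fewer features are adjusted over with 1 probe set a gene, with the mean over a gene's probe sets and with the dim filter. The SEs changed there as well, that of Ptger2 from 0.200 to 0.192 with 1 probe set a gene. What part each had in the counts was not tested. A threshold of 0.10 calls more genes by its construction. The cause of the other changes was not tested. No paired analysis was possible because the groups share no replicate number.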

Other observations

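Arachidonic acid also feeds the leukotriene and epoxide branches, and none of 21 measured genes of these branches was called (median log2 difference 0.04, against -0.01 over all named genes). Ltb4r, the receptor for the chemoattractant leukotriene B4, read 8.54, 8.72 and 9.18 on SAH arrays 1, 4 and 5 and 7.76, 7.72 and 8.48 on sham arrays 6, 7 and 8, a log2 difference of 0.82 ± 0.25 (SE; limma adjusted p = 0.211, n = 3 each). Sham array 8 again stood nearest to the SAH arrays. Alox5, the 5-lipoxygenase that starts leukotriene synthesis, read 7.71, 7.37 and 7.57 on the SAH arrays and 8.23, 7.87 and 8.74 on the sham arrays, a log2 difference of -0.73 ± 0.22 (adjusted p = 0.207). The groups did not overlap for either gene. Lta4h, which makes leukotriene B4, differed by -0.41 ± 0.14, and Cyp2j4, a P450 gene of the epoxygenase family, by -0.49 ± 0.17 (adjusted p = 0.251 and 0.246).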
